A study of Mus musculus with 44 samples.

Results

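The INK4 family comprises 4 small proteins that inhibit the cyclin-dependent kinases CDK4 and CDK6, and its 4 genes, Cdkn2a, Cdkn2b, Cdkn2c and Cdkn2d, are described here across bleomycin-induced fibrosis and recovery of mouse skin. They were picked by name among the 43411 genes of the count table, and all 4 were among the 17037 genes that passed a filter on low values. The family was taken up with its levels in these mice already known, because Cdkn2a had stood out in both recovery groups. Its differences between groups are therefore given as a description, with intervals but with no test.

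Bulk RNA was sequenced from back skin biopsies of 44 wild-type (WT) female C57Bl/6 mice that were 8 weeks old at the start. The control group received saline (n = 10 mice). The other groups received daily subcutaneous bleomycin, 100 µL at 1 U/mL by the sample labels, into the back skin for 2 weeks (n = 10) or 4 weeks (n = 10), or for 4 weeks followed by 6 weeks (n = 6) or 10 weeks (n = 8) without treatment. These last groups, labelled 6weeks_recovery and 10weeks recovery, are called early and late recovery. A different strength appears in another description of the study, so the dose is given by the labels only. Bleomycin is a drug that breaks DNA, and repeated injection thickens the dermis and is used as a model of systemic sclerosis, limited here to females of 1 inbred strain. Recovery mice were killed later than treated mice and were older at harvest, and the harvest time of saline mice is not given in the sources used here, so that age and treatment history cannot be told apart. Every comparison with saline used the same 10 saline mice. In bulk skin, a change in how many cells of a type are present and a change in RNA per cell cannot be told apart.

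As background, INK4 proteins bind CDK4 and CDK6 and keep D-type cyclins from activating them, so that the retinoblastoma proteins stay unphosphorylated and hold back the E2F factors that switch on genes for DNA synthesis. Cdkn2a encodes p16INK4a and, from another first exon and in another reading frame, p19ARF, which binds MDM2 and thereby stabilises p53. Cdkn2b encodes p15INK4b, a known target of TGF-beta, Cdkn2c encodes p18INK4c, and Cdkn2d encodes p19INK4d, which is a different protein from p19ARF. Cdkn2a is widely used as a marker of senescence, a lasting arrest of the cell cycle, and its level is known to increase with age in mouse tissues.

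Cdkn2a and Cdkn2b are neighbours on the minus strand of chromosome 4. In GRCm38 (GENCODE vM21) Cdkn2a (ENSMUSG00000044303.6) spans chr4:89274471-89294653 and Cdkn2b (ENSMUSG00000073802.4) spans chr4:89306299-89311039, with 11645 bases between them. Cdkn2c (ENSMUSG00000028551.12; chr4:109660876-109667189, minus strand) lies 20349836 bases from Cdkn2b on the same chromosome, and Cdkn2d (ENSMUSG00000096472.1; chr9:21288410-21291407, minus strand) is on chromosome 9. No other annotated gene overlaps any of the 4. The 2 coding transcripts of Cdkn2a begin 12461 bases apart, and the table holds 1 count for the whole gene, so p16INK4a and p19ARF transcripts could not be separated in any value below.

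The upstream sequences of the neighbouring genes are shown because Cdkn2a and Cdkn2b were the members with higher levels in recovery, and because the transcripts of Cdkn2a start from separate promoters. Each is the 250 bases before a RefSeq start (GRCm38.p6), less any bases inside a GENCODE exon, read 5′ to 3′ along the minus strand. Capitals mark matches, on either strand, to any of 6 motifs: the GC box GGGCGG, the cyclic AMP response element TGACGTCA, the AP-1 motif TGANTCA, the E2F motif TTTNGCGC, the E-box CACGTG and the TATA motif TATAAA. The windows shown are chr4:89294654-89294869 (216 bases) and chr4:89282193-89282442 (250 bases) for the starts of Cdkn2a, and chr4:89311040-89311282 (243 bases) for Cdkn2b.
Cdkn2a, start of the longer gene span: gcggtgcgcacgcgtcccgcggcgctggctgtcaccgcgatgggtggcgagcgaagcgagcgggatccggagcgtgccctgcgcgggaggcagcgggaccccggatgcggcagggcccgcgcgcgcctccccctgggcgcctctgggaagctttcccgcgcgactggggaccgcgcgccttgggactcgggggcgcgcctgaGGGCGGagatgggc
Cdkn2a, start inside the gene: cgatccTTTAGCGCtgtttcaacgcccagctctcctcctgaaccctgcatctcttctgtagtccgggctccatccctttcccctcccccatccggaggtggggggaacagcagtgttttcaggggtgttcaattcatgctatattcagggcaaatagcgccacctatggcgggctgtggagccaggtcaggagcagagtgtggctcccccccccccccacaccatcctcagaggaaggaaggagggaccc
Cdkn2b: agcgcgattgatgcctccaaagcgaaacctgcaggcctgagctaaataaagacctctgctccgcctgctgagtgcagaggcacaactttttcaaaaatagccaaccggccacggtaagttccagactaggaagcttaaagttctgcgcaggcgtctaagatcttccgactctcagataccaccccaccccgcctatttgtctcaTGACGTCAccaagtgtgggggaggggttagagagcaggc

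The 3 windows shared no motif, and no matches overlapped. Over the full 250 bases, the upstream Cdkn2a window held 2 GC boxes, 1 of them in the part shown, and 32.7% of 32817 such windows in the RefSeq table held at least 1. The inner Cdkn2a window held 1 match to the E2F motif, present in 1.13% of windows. The Cdkn2b window held 1 match to the cyclic AMP response element, present in 1.55% of windows. The upstream Cdkn2a window was also the richest of the 3 in G and C, at 78.4%, against 60% for the inner window, 53.6% for Cdkn2b and a median of 52.4% over all windows. A match is a run of letters only, and binding was not measured. For Cdkn2c, the window before the first start lay wholly inside an annotated exon and is not printed.

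Libraries held 8509094 to 15285577 reads on genes, and values are normalized counts, reads divided by a size factor for each library. Fibroblast markers (7 genes) and basal keratinocyte markers (5 genes) were present in every group. Saline mouse 1 and 2-week mouse 2 stood furthest from the other mice of their groups, with median correlations of 0.942 and 0.936. Without both mice, no member changed between overlapping and separate groups in any comparison.

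Cdkn2a was barely detected in saline skin and stood highest after bleomycin had been stopped. In saline mice its normalized count had a lowest value of 0, a median of 1.25 and a highest of 4.74, and the group held 14 reads in all (95% exact Poisson interval 7.65 to 23.5, counting error only), with 3 mice at 0. The 2-week mice had a lowest value of 2.18, a median of 3.86 and a highest of 16.4. After 4 weeks of bleomycin the lowest, median and highest values were 11.0, 19.8 and 39.3. The low end of the range thus left the saline range at 4 weeks, when no treated mouse overlapped a saline mouse, whereas at 2 weeks only 4 of 10 mice were above every saline mouse. In early recovery the lowest, median and highest values were 82.5, 113.3 and 193.8. In late recovery they were 51.7, 92.5 and 130.0. Every recovery mouse was above every 4-week mouse, and the recovery groups overlapped each other.

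Mean Cdkn2a was 1.63 ± 1.59 (SD, n = 10) in saline, 5.78 ± 4.53 (n = 10) at 2 weeks, 21.0 ± 8.97 (n = 10) at 4 weeks, 126.4 ± 42.9 (n = 6) in early recovery and 88.3 ± 25.6 (n = 8) in late recovery. Against saline, the difference on the log2(normalized count + 1) scale was 1.38 (SE 0.31, 95% interval 0.76 to 2.00) at 2 weeks and 3.21 (SE 0.31, 2.59 to 3.83) at 4 weeks. It was 5.78 (SE 0.35, 5.07 to 6.50) in early recovery and 5.28 (SE 0.33, 4.62 to 5.93) in late recovery. As ratios of mean normalized counts these differences were 3.54, 12.9, 77.5 and 54.1, and all 4 ratios rest on the 14 saline reads. The step from 4 weeks of bleomycin to early recovery, which does not involve saline, was a ratio of 6.02, or 2.57 (95% interval 1.85 to 3.28) on the log2 scale. From early to late recovery the interval of the difference, -1.25 to 0.24 around -0.51, included 0. The earlier step from 2 to 4 weeks of bleomycin was 1.84 (1.22 to 2.45), with overlapping groups. The log2 scale with 1 added understates changes of a gene as low as Cdkn2a, and with 0.1 added the differences from saline became 2.47, 4.53, 7.15 and 6.64.

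**Figure D1:**
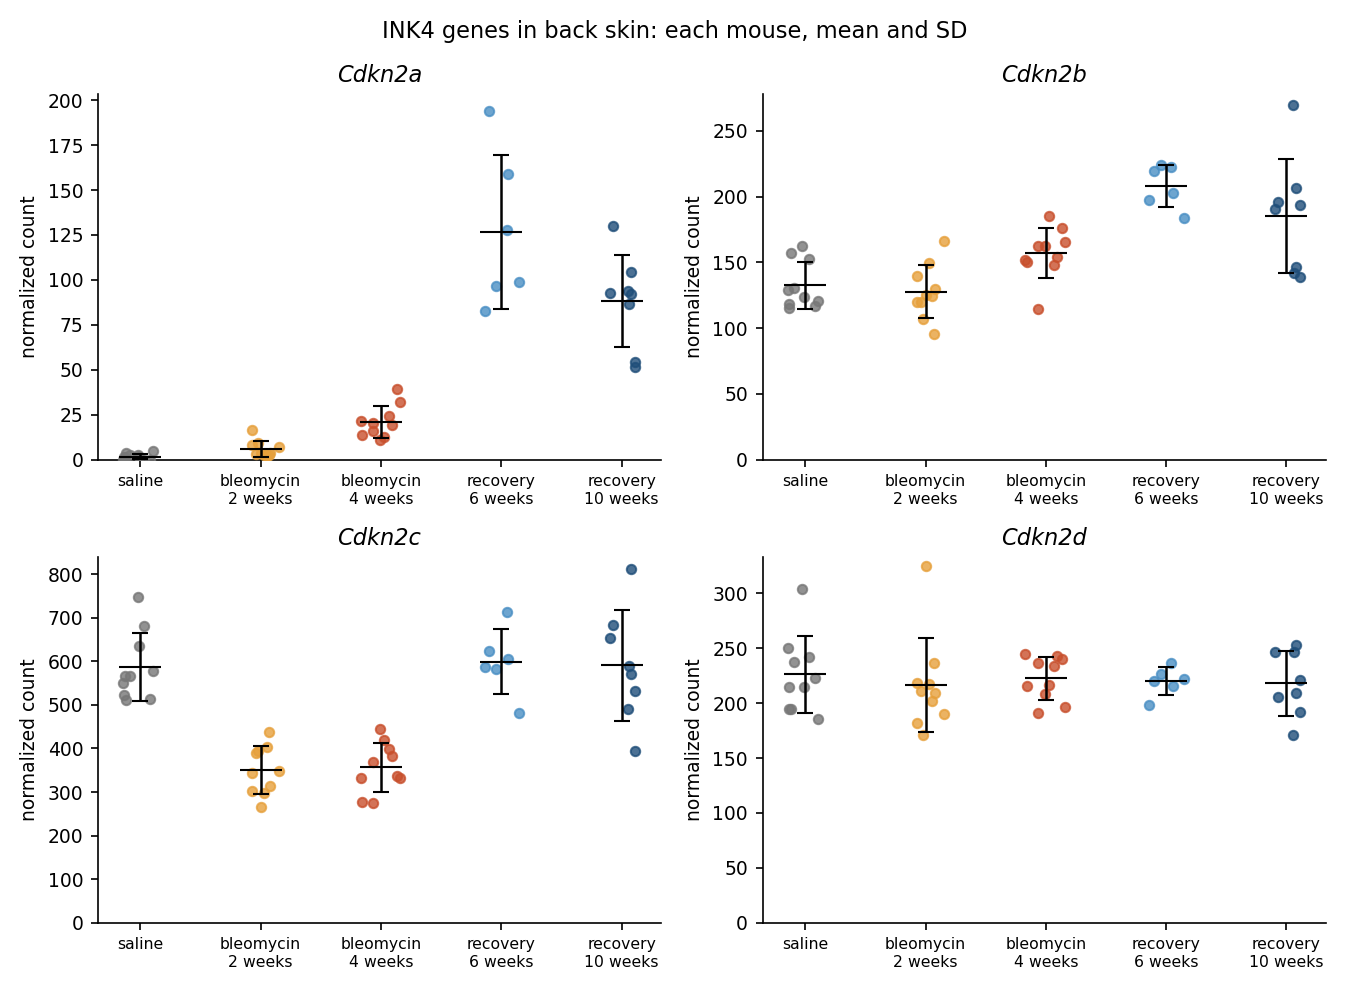
Normalized count (vertical axis, from 0, scaled for each gene) of each INK4 gene in each mouse (points) by group, with the mean (long bar) and SD (whiskers). Cdkn2a is highest in both recovery groups, where all mice lie between 51.7 and 193.8, Cdkn2c is lowest in both groups on bleomycin, and Cdkn2d has nearly the same mean in all 5 groups.

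Cdkn2b, the neighbour of Cdkn2a, was also higher in recovery, over a much narrower range. Its normalized count had a lowest value of 115.5, a median of 126.2 and a highest of 162.4 in saline mice. The 2-week mice (95.4, 124.5 and 166.2) and the 4-week mice (114.4, 158.0 and 185.0) overlapped them. In early recovery the lowest, median and highest values were 184.0, 211.0 and 224.0, so that every mouse was above every saline mouse. In late recovery they were 139.0, 192.3 and 269.4, and 5 of 8 mice were above every saline mouse.

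Mean Cdkn2b was 132.6 ± 17.9 in saline (SD, n = 10), 127.6 ± 20.3 at 2 weeks (n = 10), 156.9 ± 19.0 at 4 weeks (n = 10), 208.2 ± 16.2 in early recovery (n = 6) and 185.5 ± 43.5 in late recovery (n = 8). The log2 difference from saline was -0.06 (95% interval -0.26 to 0.14) at 2 weeks and 0.24 (0.04 to 0.44) at 4 weeks. In early recovery it was 0.65 (SE 0.12, 0.42 to 0.89), a ratio of means of 1.57, and in late recovery 0.46 (SE 0.11, 0.25 to 0.67), a ratio of 1.40. In the order of the means, from 2 weeks, saline, 4 weeks, late recovery to early recovery, every pair of neighbouring groups overlapped. Beside Cdkn2a, whose ratio in early recovery was 77.5, the change of its neighbour was thus small.

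Cdkn2c had a different course, lower during bleomycin and at the saline level in recovery. In saline mice the lowest normalized count was 510.1, the median 566.7 and the highest 746.7. The corresponding values were 266.6, 345.7 and 438.5 at 2 weeks of bleomycin and 273.7, 352.3 and 443.9 at 4 weeks. No mouse on bleomycin reached the lowest saline mouse. In recovery the values were 482.2, 595.3 and 714.0 at 6 weeks and 394.5, 580.4 and 811.6 at 10 weeks, both overlapping saline. The early recovery mice all lay above the 4-week mice, whereas the lowest mouse of the late recovery group lay within the range on bleomycin.

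Mean Cdkn2c was 587.1 ± 77.8 in saline (SD, n = 10), 349.9 ± 55.3 at 2 weeks (n = 10), 356.5 ± 56.6 at 4 weeks (n = 10), 598.7 ± 74.8 in early recovery (n = 6) and 590.7 ± 127.4 in late recovery (n = 8). The mean on bleomycin was 59.6% of saline at 2 weeks, a log2 difference of -0.75 (SE 0.10, 95% interval -0.96 to -0.54), and 60.7% of saline at 4 weeks, a log2 difference of -0.72. In recovery the log2 differences from saline were 0.03 and -0.01. The difference from 4 weeks of bleomycin to early recovery was 0.75 on the log2 scale, a ratio of 1.68.

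Cdkn2d did not separate any group from another. Its means ran from 216.2 ± 42.8 (SD, n = 10) at 2 weeks of bleomycin to 226.2 ± 34.8 (n = 10) in saline, with 222.6 ± 19.7 at 4 weeks, 220.1 ± 12.7 in early recovery and 217.9 ± 29.3 in late recovery between them. All 5 groups overlapped, and the 95% intervals of its log2 differences from saline reached from -0.25 at the lowest to 0.18 at the highest. A difference of the size of that of Cdkn2c lay outside these intervals.

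Set against all genes, 1 of the 4 members (Cdkn2c) lay wholly below saline at 2 weeks, as did 1.33% of the 17037 genes tested. At 4 weeks Cdkn2c again lay wholly below (2.21% of all genes) and Cdkn2a wholly above (4.31% of all genes). In early recovery Cdkn2a and Cdkn2b lay wholly above saline (1.41% of all genes), and in late recovery Cdkn2a did (0.282% of all genes). From 4 weeks of bleomycin to early recovery, Cdkn2a and Cdkn2c lay wholly above (4.44% of all genes). These comparisons brought in the members, so nothing is read from their count against the background.

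**Figure D2:**
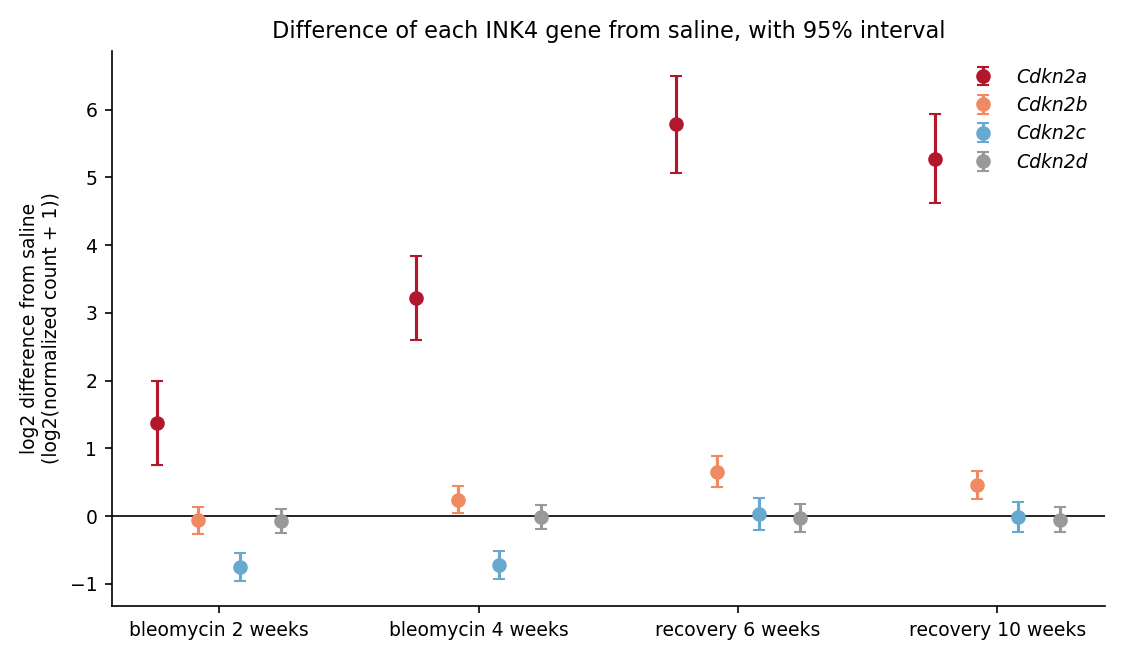
Difference of each INK4 gene from saline on the log2(normalized count + 1) scale (vertical axis) for the 4 other groups (horizontal axis), as points with 95% intervals from a fit over all 44 mice. Cdkn2a climbs from 1.38 at 2 weeks to 5.78 in early recovery, the intervals of Cdkn2c lie below 0 on bleomycin, and the intervals of Cdkn2d include 0 throughout.

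Levels of different genes were compared per kilobase of exon. In saline skin the order of mean normalized counts per kilobase was Cdkn2c (218.6), Cdkn2d (143.7), Cdkn2b (95.4) and Cdkn2a (1.39). On bleomycin for 2 weeks Cdkn2c (130.3) and Cdkn2d (137.4) were close, with Cdkn2b at 91.8 and Cdkn2a at 4.93. In early recovery Cdkn2a (107.8) had come within range of Cdkn2d (139.8) and Cdkn2b (149.8), below Cdkn2c at 222.9. Cdkn2a thus went from a negligible part of the summed level of the 4 genes to a substantial one. Its count pools p16INK4a and p19ARF transcripts, so the share of p16INK4a alone is not known. The length used for Cdkn2a was that of the merged exons of both transcripts, 1172 bases.

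As a share of the summed per-kilobase level of the family, Cdkn2a made up 0.309% in saline, 1.37% at 2 weeks, 4.41% at 4 weeks, 17.1% in early recovery and 13.1% in late recovery. Cdkn2c made up 47.6%, 35.8%, 32.7%, 35.9% and 38.5% in the same order. The summed level of the family was 459.1 ± 55.7 per kilobase in saline, lowest at 2 weeks (364.4 ± 19.7) and highest in early recovery (620.4 ± 65.7). It was 404.9 ± 38.1 at 4 weeks and 567.1 ± 78.2 in late recovery (all SD over mice).

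**Figure D3:**
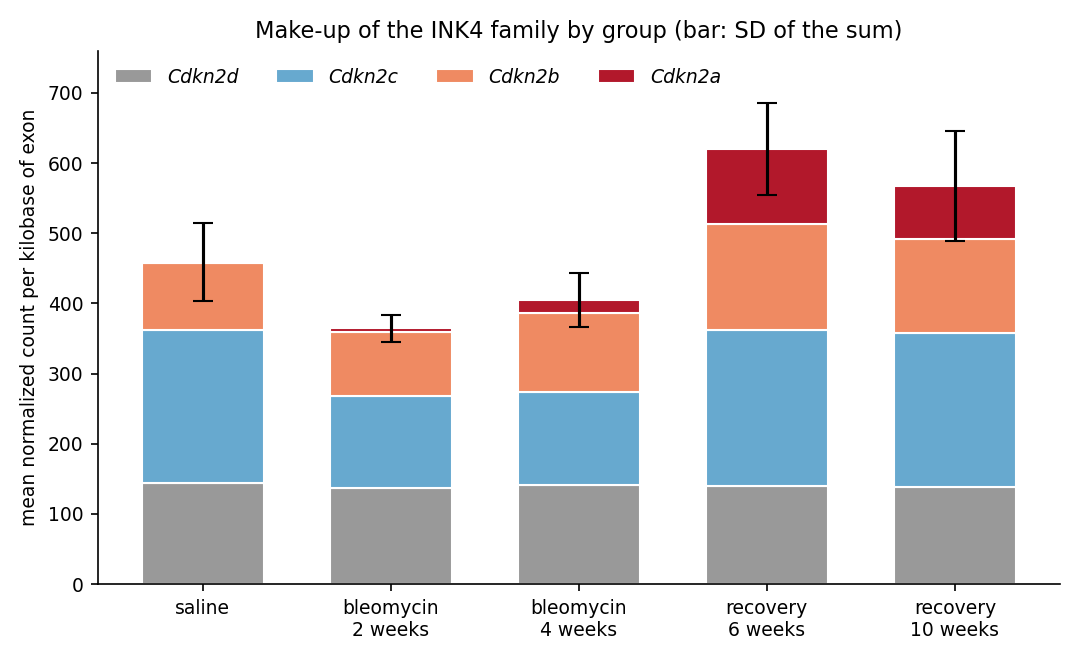
Mean normalized count per kilobase of exon (vertical axis, from 0) of the 4 INK4 genes, stacked, in each group (horizontal axis), with the SD over mice of the sum as whiskers. The Cdkn2a segment grows from 1.39 in saline to 107.8 in early recovery, while the Cdkn2d segment stays between 137.4 and 143.7.

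The protein-coding genes on either side of the Cdkn2a and Cdkn2b pair did not share its course. Mtap, which encodes an enzyme of methionine salvage, lies 93389 bases from Cdkn2a, and its log2 differences from saline were -0.44, -0.27, -0.12 and 0.03 at 2 weeks, 4 weeks, early recovery and late recovery, none past 1.5-fold. Dmrta1, a gene of the DMRT transcription factor family that lies 368396 bases from Cdkn2b, had means of 2.76, 8.74, 10.8, 3.01 and 2.12 in saline, 2 weeks, 4 weeks, early recovery and late recovery. It was called higher than saline at 2 weeks (log2 difference 1.33) and 4 weeks (1.66) and not in recovery (-0.25 and -0.52). Of the next genes outward, Ifne was listed at 0 in every mouse and Zfp352 never exceeded 0.98. The recovery pattern of Cdkn2a and Cdkn2b was thus not seen in the measured flanking genes.

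Ranked over the 44 mice by Spearman's rho, as a description, the genes most like Cdkn2a were Hc (rho 0.890), which encodes complement C5, C1qtnf3 (0.866), a secreted protein with a C1q domain, Prss23 (0.840), a serine protease, P4ha3 (0.834), a subunit of collagen prolyl 4-hydroxylase, and Myh7 (0.812), a slow-twitch myosin. Their points share the group structure of the study. Mean normalized counts of C1qtnf3 were 543.1 in saline, 702.3 at 2 weeks, 1252 at 4 weeks, 3107 in early recovery and 1292 in late recovery. Among 17036 genes, Cdkn2b ranked 30 in likeness to Cdkn2a (rho 0.710), Cdkn2c 3539 (0.216) and Cdkn2d 7901 (0.022). Cdkn2b was most like Pcdhb9 (0.718), Cthrc1 (0.710) and Cdkn2a (0.710). Cdkn2c was most like Zfyve21 (0.892), the thyrotropin receptor gene Tshr (0.892) and Agpat2 (0.885), an enzyme of triglyceride synthesis. The closest genes to Cdkn2d reached only 0.628 (Tmem14c), 0.609 (Ece2) and 0.596 (Ccdc138).

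Whether the members vary together among mice of a group was tested, since these differences had no part in their choice. After group means were taken off, Pearson's r between Cdkn2a and Cdkn2b was 0.162 (permutation within groups, two-sided, p = 0.294, adjusted p = 0.515, n = 44) and Spearman's rho 0.182 (permutation p = 0.259, adjusted p = 0.445), and r was 0.245 without the 2 farthest mice. The r within single groups ran from 0.0723 to 0.385. No relation between mice of a group was thus detected beside the similarity of both genes across the study, rho 0.710. However, Cdkn2a had 3 reads or fewer in 9 of 10 saline mice and in 5 of 10 2-week mice. Counting error in these groups could hide a relation, so little can be read from any within-group relation of Cdkn2a. None of 14 relations tested passed after Benjamini-Hochberg adjustment. The smallest unadjusted p belonged, for r, to Cdkn2a and a growing hair follicle score (r = -0.308, permutation p = 0.0334, adjusted p = 0.279; rho = -0.309, permutation p = 0.0383, adjusted p = 0.268; r = -0.383 without the 2 farthest mice), with r below 0 in each of the 5 groups. Cdkn2c and a cell division score gave r = 0.00722 (permutation p = 0.964, adjusted p = 0.964) and rho = -0.0257 (permutation p = 0.873, adjusted p = 0.873), with r = 0.0312 without the 2 farthest mice. Within single groups its r went both ways, at 0.374 in saline, -0.638 at 2 weeks, 0.507 at 4 weeks, -0.680 in early recovery and -0.110 in late recovery, and these were not tested separately. The hair score is the mean log2 level of 7 keratin and follicle genes, and the cell division score that of 19 genes.

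Markers of other cells moved with the members. With Cdkn2a and Cdkn2b, 1, 4, 4 and 3 of 4 Schwann cell markers were called higher than saline at 2 weeks, 4 weeks, early recovery and late recovery. Their summed level ranged from 1402 to 3979 in saline and from 3838 to 6597 in early recovery. Over all genes, 9.3%, 10.5%, 3.33% and 2.05% were called higher than saline at 2 weeks, 4 weeks, early recovery and late recovery. Of 9 skeletal muscle markers 2, 4, 4 and 4 were called higher, but their summed level in saline (69860 to 236538) overlapped that in early recovery (157942 to 282445). Means of this list went both ways from saline to early recovery, with Myh7 at 50.4 and 545.8 and Myh4 at 52311 and 35805. Of 5 endothelial markers 2, 2, 3 and 0 were called higher, with summed levels of 1170 to 2348 in saline and 2444 to 3191 in early recovery. None of these markers was at 0 in all mice of a group. The part of these cells in the results for Cdkn2a and Cdkn2b was not tested.

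With Cdkn2c, 3 and 4 of 6 adipocyte markers were called lower at 2 and 4 weeks and 0 in either recovery group. Of all genes, 7.43%, 7.37%, 1.71% and 0.998% were called lower at 2 weeks, 4 weeks, early recovery and late recovery. The shares called higher are those given with the Schwann cell markers. The summed adipocyte level ranged from 10005 to 15270 in saline and from 11019 to 16249 in early recovery. It ranged from 6029 to 14027 at 2 weeks and from 6357 to 10061 at 4 weeks, both overlapping saline. All 7 measured markers of the growing hair follicle were called lower at 2 and 4 weeks. Their summed level ranged from 2047 to 209312 in saline and from 133 to 1945 at 2 weeks. At 4 weeks it ranged from 159 to 4677, overlapping saline. Of 9 macrophage markers 7 were called higher at both treatment times and 0 in recovery, with summed levels of 11537 to 27882 in saline and 25389 to 49061 at 4 weeks. None of these markers was at 0 in all mice of a group, and their part in the result for Cdkn2c was not tested. Of the fibroblast markers 0 of 7 were called higher at any time, and 3, 1, 1 and 1 were called lower. Of 4 mast cell markers 4, 4, 2 and 0 were called higher, as were 4, 1, 0 and 0 of 6 T cell markers.

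The other genes of the pathway were tested in the fit over all genes. There, a gene was called at a fold change above 1.5 and an adjusted p below 0.05 in limma. Their lists were chosen with earlier results of these data known, so their counts beside those of all genes are a description. Of 80 pathway genes, 12 were called higher and 7 lower than saline at 2 weeks, and 12 higher and 18 lower at 4 weeks. In early recovery 5 were higher and 19 lower, and in late recovery 2 were higher and 2 lower. These counts are 23.75%, 37.5%, 30% and 5% of the pathway genes, where 16.7%, 17.9%, 5.04% and 3.05% of all genes were called. Most of the calls lay in the cell division list (3, 16, 15 and 0 of 19 genes) and the senescence-associated list (13, 11, 7 and 3 of 18). Among the cyclins, their kinases and the RB family 0 of 11 genes were called at any time. Among known regulators of the Cdkn2a and Cdkn2b locus 0 of 15 were. The median log2 difference of the pathway genes was -0.12, -0.14, -0.21 and -0.13, and that of all genes lay within 0.003 of 0. In late recovery the count depended on the test, with 11 pathway genes called by edgeR and 14 by DESeq2 against 4 by limma.

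**Figure D4:**
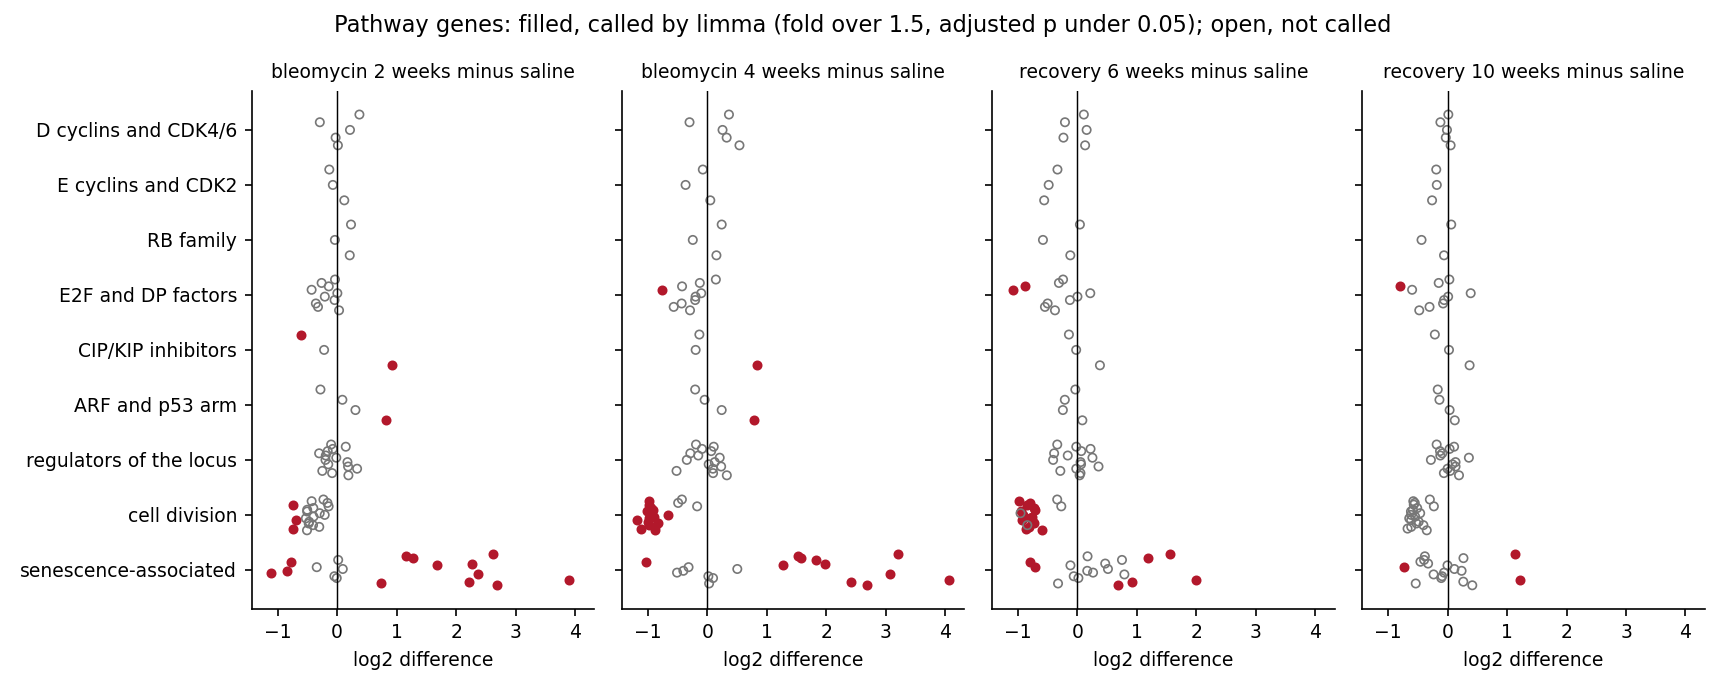
Log2 difference from saline (horizontal axis) of each pathway gene (point), by list (vertical axis), in the 4 comparisons (panels). Filled points were called by limma and open points were not. The cell division genes lie left of 0, with 16 of 19 called at 4 weeks and 15 of 19 in early recovery, and the cyclins, kinases and RB genes have no filled points.

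The kinases that INK4 proteins bind, the cyclins and the RB family had no gene called by limma. Among the D cyclins, CDK4, CDK6, the E cyclins, CDK2 and the RB family, 0 of 11 genes were called by limma in any comparison with saline, while 4, 9, 4 and 1 had an unadjusted p under 0.05 at 2 weeks, 4 weeks, early recovery and late recovery. By edgeR and by DESeq2, 0, 0, 1 and 0 were called. Cdk4 had log2 differences of -0.29, -0.30, -0.21 and -0.12, and Cdk6 of 0.37, 0.36, 0.11 and 0.01. Cyclin D1 (Ccnd1) was 0.54 above saline at 4 weeks (limma adjusted p = 0.0046). Rb1, the gene of the retinoblastoma protein, had differences of 0.21, 0.15, -0.12 and -0.06, and its relative Rbl1 had -0.58 in early recovery (limma adjusted p = 0.00054), just short of the fold threshold.

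Downstream of these, 10 E2F and DP factors had 0, 1, 2 and 1 genes called by limma, all of them lower and all of them the repressors E2f7 and E2f8. Of all genes, 7.43%, 7.37%, 1.71% and 0.998% were called lower in the same comparisons. The count at 4 weeks was thus near the share of all genes. E2f7 fell by 0.76 at 4 weeks (limma adjusted p = 0.0033) and by 1.09 in early recovery (limma adjusted p = 0.0024). E2f8 fell by 0.88 in early recovery (limma adjusted p = 0.0023) and by 0.80 in late recovery (limma adjusted p = 0.0040). At 2 weeks, where limma called 0 of them, 5 had an unadjusted p under 0.05. By edgeR 0, 2, 3 and 1 factors were called, and by DESeq2 0, 2, 3 and 2, in the same order of groups.

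Genes of cell division, which the E2F factors switch on, were lower as a group. Of 19 measured, 3, 16, 15 and 0 were called lower at 2 weeks, 4 weeks, early recovery and late recovery, where 7.43%, 7.37%, 1.71% and 0.998% of all genes were called lower. Their median log2 differences were -0.43, -0.95, -0.80 and -0.55. Cyclin B1 (Ccnb1), which drives entry into mitosis, fell by 1.17 at 4 weeks (limma adjusted p = 2.9e-06) and by 0.93 in early recovery (limma adjusted p = 0.0048). Topoisomerase II alpha (Top2a), which untangles replicated DNA, fell by 0.98 at both times (limma adjusted p = 2.7e-05 and 0.0019), and its values still overlapped saline. Its normalized counts ran from 597 to 2368 in saline and from 383 to 725 in early recovery. The highest saline value was that of saline mouse 1, which stood furthest from its group, and the next was 1234. In late recovery limma called 0 of 19, although 16 had an unadjusted p under 0.05, edgeR called 7 and DESeq2 called 9.

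Most of these division genes were called lower both at 4 weeks, when Cdkn2a averaged 21.0, and in early recovery, when it averaged 126.4. Between those times 0 of the 19 division genes were called by limma, 0 had an unadjusted p under 0.05, and edgeR and DESeq2 called 0. Growing hair follicles hold many dividing cells, and the mean hair follicle score was 10.8 in saline, 3.64 at 2 weeks, 4.72 at 4 weeks, 8.81 in early recovery and 10.8 in late recovery. The part of hair follicles in the differences of the division genes between groups was not tested, and neither was that of Cdkn2a.

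The CIP/KIP inhibitors, which act on cyclin and CDK2 complexes, were led by Cdkn1a, the gene of p21 and a classical target of p53. Its normalized count ran from 2754 to 3918 in saline (median 3158), from 5367 to 7771 at 2 weeks (median 6130) and from 5306 to 6033 at 4 weeks (median 5811). No mouse on bleomycin overlapped saline, and Cdkn1a rose by 0.91 at 2 weeks (limma adjusted p = 3.4e-17) and 0.83 at 4 weeks (limma adjusted p = 7.1e-16) on the log2 scale. In recovery the differences from saline were 0.38 (limma adjusted p = 0.00015) and 0.37 (limma adjusted p = 0.00012), below the fold threshold. From 4 weeks of bleomycin to early recovery, while Cdkn2a went up 6.02-fold, Cdkn1a changed by -0.45 (limma adjusted p = 8.1e-07) and every recovery mouse lay below every 4-week mouse. Cdkn1b, the gene of p27, had differences of -0.22, -0.20, -0.02 and 0.02, and Cdkn1c, an imprinted inhibitor, was called lower at 2 weeks only (-0.61, limma adjusted p = 0.0024) and not by edgeR or DESeq2.

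In the ARF and p53 arm, Mdm2, the ligase that degrades p53 and is itself a p53 target, followed Cdkn1a rather than Cdkn2a in time. Its normalized count ran from 526.1 to 614 in saline, from 882 to 1108 at 2 weeks and from 852 to 1066 at 4 weeks. Mdm2 rose by 0.82 (limma adjusted p = 2.2e-18) and 0.78 (limma adjusted p = 1.2e-17), and in recovery it differed from saline by 0.08 and 0.12. From 4 weeks of bleomycin to early recovery it fell by 0.70 (limma adjusted p = 2.0e-13). The p53 gene itself, Trp53, had differences of -0.28, -0.20, -0.04 and -0.17, none called, and Npm1 and Mdm4 were not called against saline either.

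**Figure D5:**
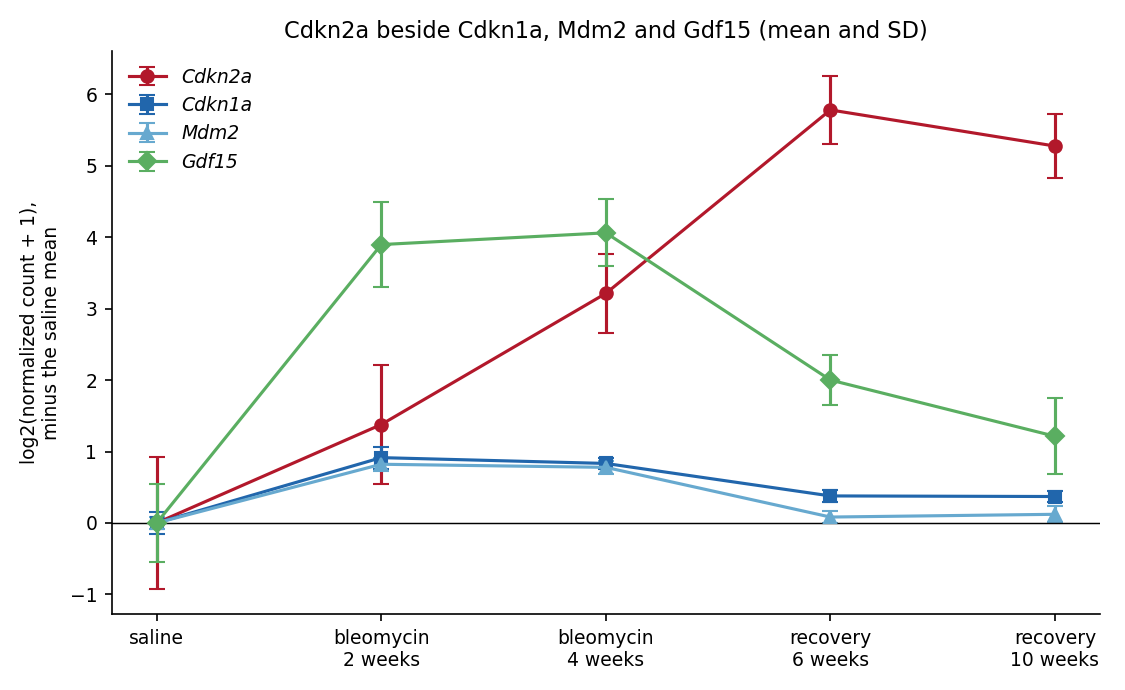
Mean and SD over mice of log2(normalized count + 1), minus the saline mean (vertical axis), in each group (horizontal axis), for Cdkn2a, the p53 targets Cdkn1a and Mdm2, and Gdf15. Cdkn1a, Mdm2 and Gdf15 are highest on bleomycin, Mdm2 is back within 0.12 of saline in recovery, and Cdkn2a is highest in early recovery, at 5.78.

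Genes associated with senescence, 18 beside the INK4 members, were counted next. At 2 weeks 10 were called higher and 3 lower, at 4 weeks 10 higher and 1 lower, in early recovery 5 higher and 2 lower, and in late recovery 2 higher and 1 lower. Over all genes, 9.3%, 10.5%, 3.33% and 2.05% were called higher at these times, and the shares called lower are those given for the division genes. Gdf15, a stress-induced cytokine of the TGF-beta family, had differences of 3.90, 4.06, 2.00 and 1.21, all called. Its median normalized count was 3.13 in saline, 60.98 at 2 weeks, 66.5 at 4 weeks, 13.6 in early recovery and 7.59 in late recovery. The chemokine gene Ccl2 had differences of 2.68, 2.69, 0.69 and 0.42, the last not called. Gdf15 and Ccl2 thus stood highest on bleomycin, whereas Cdkn2a stood highest in early recovery, and other genes of the list, such as Igfbp3, did not stand highest on bleomycin.

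The direct comparison of early recovery with 4 weeks of bleomycin showed the same contrast, with 10 of 18 senescence-associated genes called where 11.9% of all genes were. The difference was -2.06 for Gdf15 (limma adjusted p = 7.6e-08), -2.01 for Ccl2 (limma adjusted p = 8.1e-11) and -2.28 for Hmga2, a chromatin protein (limma adjusted p = 1.1e-08). Igfbp3, which binds insulin-like growth factors, was the 1 gene called higher (0.77, limma adjusted p = 0.00088). Mmp3, the matrix protease stromelysin, remained above saline in early recovery (1.19, limma adjusted p = 5.7e-06). Lamin B1 (Lmnb1), which is typically lost in senescent cells, was called lower at 2 weeks (-0.77), 4 weeks (-1.03) and early recovery (-0.80, limma adjusted p = 0.030), and its median normalized count was 612 in saline and 320 in early recovery. Il1a, an alarmin of the skin, was called lower in both recovery groups (-0.71 and -0.73). Glb1, the gene of the beta-galactosidase used to stain senescent cells, had differences between -0.11 and 0.10.

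Known regulators of the Cdkn2a and Cdkn2b locus, 15 genes that include the Polycomb repressors, the ETS factors and Id1, had 0 called by limma in each comparison with saline, while 8, 6, 7 and 5 had an unadjusted p under 0.05. EdgeR and DESeq2 called 0 as well. The Polycomb gene Bmi1, a repressor of Cdkn2a, was 0.33 above saline at 4 weeks (limma adjusted p = 0.00026), where the groups did not overlap, and 0.04 above it in early recovery. Ezh2, the methyltransferase of Polycomb complex PRC2, had differences of -0.20, -0.34, -0.41 and -0.28. Ets1 and Ets2, activators of Cdkn2a, had 0.35 and 0.06 in early recovery, and Id1, an inhibitor of their action, had 0.25. The widest difference from saline of a measured regulator was that of the Polycomb gene Cbx8, -0.52 at 4 weeks. Only RNA levels were measured, and the part of these regulators in the result for Cdkn2a was not tested.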

How the data were processed

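Total RNA was made into stranded mRNA libraries (TruSeq) and sequenced on an Illumina HiSeq, with STAR 2.4.0, mm10 and DESeq2 1.12.3 named in the submitters' processing notes. How reads were counted on genes (tool, strand, annotation) is not given in the sources used here. The authors deposited 1 table of DESeq2-normalized counts for 44 mice, a signal on a linear scale (reads divided by a size factor). Whole reads were recovered from its steps, 100.0% of values being whole within 0.01 reads, and 98.9% of gene IDs had a symbol.

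Genes with a mean above 3 (17037) were fitted with limma 3.58.1 (R 4.3.3), with a mean-variance trend, on log2(normalized count + 1), all 5 groups together. Calls needed a fold change above 1.5 and a Benjamini-Hochberg adjusted p below 0.05 over all genes tested. Alternatives were a pseudocount of 0.1, no filter, at least 10 counts in 6 mice, rescaling by trimmed means, quantile normalization, only the groups compared, a replicate block, edgeR 4.0.16 and DESeq2 on the recovered reads, and 42 mice. The fits were tested on simulated data. Relations within groups used 100000 permutations.

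The members and all lists were chosen with earlier results of these data known. The named genes are the members, up to 3 called genes with the largest change in each pathway list and any gene whose role is described, the genes most like each member, and the nearest 2 protein-coding genes on each side of the locus. The values of 1 gene that this rule names are not reported here. Replicates are separate mice. Of the marker and pathway lists, 3 genes were not analysed here.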

Additional observations from a re-analysis of the deposited data

Results flagged for a closer look

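In 3 of 20 groups of values (4 genes in 5 groups), an extreme mouse lay farther from the others than Dixon's 95% limit for its group size, where chance alone flags about 1 group in 20. The highest of the 2-week values of Cdkn2a, mouse 10 at 16.4, was apart from the next mouse at 9.25, and it rests on 14 reads. The lowest of the 4-week values of Cdkn2b, mouse 3 at 114.4, was apart from the next at 147.7. The highest of the 2-week values of Cdkn2d, mouse 2 at 325.1, was apart from the next at 236.3, and this is the 2-week mouse that stood furthest from its group over all genes.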

How the results depend on the processing

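Of 224 member differences recomputed under the alternatives, 220 moved by less than the spread between mice. The other 4 were those of Cdkn2a from saline with a pseudocount of 0.1, at 2.47 (2 weeks), 4.53 (4 weeks), 7.15 (early recovery) and 6.64 (late recovery), where the smaller pseudocount enlarges changes from a level near 0. Counts over all genes stayed within 1.5 times in 66 of 70 cases. The exceptions were late recovery against saline with only those groups fitted (326 instead of 519 genes), and late against early recovery (15 genes), at 56 with only those groups, 63 by DESeq2 and 58 without saline mouse 1 and 2-week mouse 2. Pathway genes called in late recovery numbered 4 in the reported fit, 7 under quantile normalization, 11 with edgeR, 14 with DESeq2 and 11 with replicate number as a block. Replicate numbers are shared between groups, but the mice differ, and the labels do not say what a number stands for. Same-numbered mice did not deviate together in the median (r -0.0022 over 78 pairs, against -0.0042 over 690 pairs with different numbers). Single pairs ran from -0.69 to 0.38, against -0.65 to 0.64. A median over pairs cannot show what some pairs or genes share, so the block is given as an alternative only. The relation of Cdkn2c to cell division, near 0, changed sign under quantile normalization, at -0.009. The cause of these changes was not tested unless stated. Depth limits Cdkn2a in saline, where 9 of 10 mice had 3 reads or fewer.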
